A study of Homo sapiens with 8 samples.

Results

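The collagen genes are the 44 protein-coding genes of the count table whose symbol is COL, a number, A and a number, out of 58395 genes listed. Membership goes by the name of the gene, and the 44 lie on 17 chromosomes, each gene coding for 1 chain of a collagen. All 44 had at least 1 read, and 34 passed the filter on low counts (at least 10 reads in as many libraries as a group holds, scaled to library size). Every library came from human dopaminergic neurons made from induced pluripotent stem cells, sold as iCell DopaNeurons, kept on coated coverslips until day 4 with 1 change of medium 24 hours after plating. The 4 GDNF libraries are from neurons on nanostructures that mimic GDNF, a neurotrophic factor first found in a glial cell line. The other 4 libraries bear the name CT, which the labels leave unexplained and which is taken here as the scrambled nanostructure that the series design names as comparator. A treatment value of 10.73 mM is given for all 8 samples alike, and 4 libraries a group were analysed where the design speaks of 3. Neither the donor nor the number of clones behind the neurons is stated, and nothing says whether libraries came from separate cultures, so the spread behind every p-value may be technical. The comparison asks whether the GDNF mimic changes the genes that neurons express, here those of the collagen matrix.

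Collagens are secreted or membrane-bound proteins whose chains wind around each other in a helix built from repeats of glycine and a pair of further residues, often proline. The chains are made in the endoplasmic reticulum, hydroxylated, assembled, secreted, trimmed and cross-linked. Fibrillar collagens form the fibres of connective tissue, type IV collagen forms the sheet of basement membranes, type VI forms beaded filaments, and FACIT collagens decorate fibrils. In the nervous system collagens are known from the meninges and vessel walls, from basement membranes and, for some transmembrane and minor types, from neurons themselves.

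The repeat that defines the family can be read in the coding sequence as a codon of the form GGN, which codes for glycine, in each group of 3 codons. The stretches that follow show the first 10 repeats of the longest such run in a fibrillar chain, a basement membrane chain, a type VI chain and the minor collagen COL26A1, with the GGN codons in capitals (coding strand, 5′ to 3′, from GENCODE 29 transcripts).
COL5A1, chromosome 9: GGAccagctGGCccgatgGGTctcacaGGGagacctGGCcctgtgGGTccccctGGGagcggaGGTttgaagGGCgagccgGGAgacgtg
COL4A2, chromosome 13: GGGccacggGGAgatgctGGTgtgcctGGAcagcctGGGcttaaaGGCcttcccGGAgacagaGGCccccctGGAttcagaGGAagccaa
COL6A2, chromosome 21: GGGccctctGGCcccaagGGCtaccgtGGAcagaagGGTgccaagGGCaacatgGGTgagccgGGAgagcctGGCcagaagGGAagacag
COL26A1, chromosome 7: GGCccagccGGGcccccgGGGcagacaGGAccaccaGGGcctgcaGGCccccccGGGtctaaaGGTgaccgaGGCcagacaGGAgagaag
The longest unbroken run held 343 repeats in COL3A1 and 338 in COL5A1, but 66 in COL4A2, 87 in both COL6A1 and COL6A2, and 23 in COL26A1, the shortest of the 44. Runs of 5 or more repeats made up 86.4% of the codons of COL9A3 and 8.23% of those of COL12A1, the extremes of the family. The repeat is rich in G and C, and the collagen transcripts had a median GC content of 55.3% (range 41.3% to 67.4%), against 48.3% over all tested genes.

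Library totals were 28698283 to 34559240 reads, at which 0 reads allow up to 0.0868 to 0.105 CPM (reads scaled to library size as CPM, 3 reads per library, counting error only). The library of CT replicate 2 stood apart. Measured by log CPM, its median correlation to the remaining libraries was 0.959, where the others reached 0.986 to 0.987, and its deviations followed GC content (Spearman 0.806 across genes, which are not independent). GDNF replicate 4 was the only other library with a positive relation (0.494), and the remaining 6 lay between -0.023 and -0.64. Where a tested collagen gene is described with its fold change, the value without CT replicate 2 is therefore given beside it. That value is not corrected for any GC relation among the libraries left. The correlations above, such as -0.57 for CT replicate 1, compare a library with the mean of all others, CT replicate 2 included. What they would be with that library left out was not tested. The median log2 fold change of tested collagen genes was 0.13 without CT replicate 2. With all libraries and an offset for GC content and transcript length it was 0.020. For COL6A1 these 2 values were 0.18 and 0.055, and for COL6A2 0.28 and 0.079.

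Taken over all 44 genes, collagen transcripts amounted to 811, 1164, 679 and 701 CPM in CT replicates 1 to 4 and to 759.6, 779, 829.6 and 889 CPM in GDNF replicates 1 to 4 (CPM scaled by trimmed mean of M values, TMM). CT replicate 2 was the highest of the 8 libraries, and the GDNF values lay inside the range of CT. Group means were 839 ± 224 CPM in CT and 814 ± 58.0 CPM in GDNF (SD, n = 4 each). Without CT replicate 2 the CT mean was 731 ± 70.6 CPM (SD, n = 3), below that of GDNF, and GDNF replicates 3 and 4 lay above all 3 CT libraries. In these bulk libraries fewer cells of a type and less RNA per cell cannot be told apart. A few genes held most of the reads, since the 6 highest genes made up 80.7% of the summed CPM.

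Levels of different genes are compared as CPM per kb of annotated exon. COL6A1, a chain of type VI collagen, led the family at 60.3 CPM per kb on average (49.9 to 88.6 over the 8 libraries), above 96.7% of the tested protein-coding genes. COL26A1, a minor collagen with an EMI domain, followed at 30.9 (25.03 to 44.3), and its lowest library lay above the highest of every other collagen but COL6A1. COL18A1, the multiplexin whose tail is cleaved to endostatin, came next at 9.17 CPM per kb (7.16 to 13.9). From COL18A1 down to the last gene, ranges over libraries overlapped between each gene and the next. COL5A2 (6.93 CPM per kb), COL22A1 (6.07), COL4A2 (3.69), COL3A1 (2.87) and COL1A1 (2.65) followed in that order. This order depends on the length used. Per kb of the transcript with the longest coding sequence COL4A2 came directly after COL18A1 at 10.97 CPM per kb, followed by COL22A1 (7.48), COL5A2 (7.29), COL1A1 (3.87) and COL3A1 (3.53), while the first 3 genes kept their places. COL5A2 was above COL22A1 in 7 of 8 libraries, whereas COL3A1 was above COL1A1 in 5 of 8. In all, 17 genes averaged at least 5 CPM, 9 lay between 1 and 5 CPM, and 18 were under 1 CPM.

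**Figure D1:**
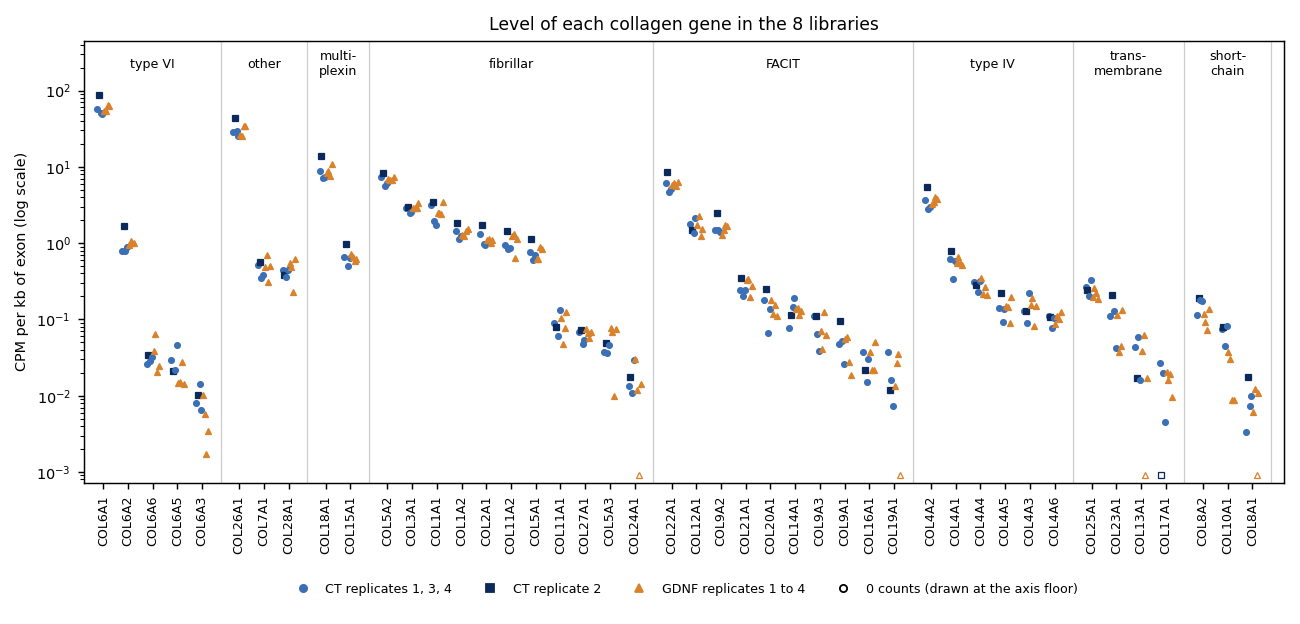
Level of each of the 44 collagen genes in each library, in CPM per kb of exon on a log axis, grouped by class; each point is 1 library, and open symbols on the axis floor mark 0 counts. COL6A1 and COL26A1 stand above all other genes, and CT replicate 2 (dark squares) is the highest library for 21 of the 34 tested genes.

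By class, type VI collagens held 39.6% of the summed collagen CPM, which is not divided by length (range over libraries 38.1% to 42.0%), nearly all of it COL6A1. Fibrillar collagens held 16.8%, type IV 10.4%, FACIT collagens 9.93% and the multiplexins 9.93%. The transmembrane collagens held 0.343% and the short-chain network collagens 0.109%. COL26A1, COL7A1 and COL28A1 made up 12.8% together. The fibrillar share ran from 14.9% to 18.3% over the libraries.

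Between the coatings no collagen gene passed the test. In edgeR's quasi-likelihood test, 0 of 34 tested collagen genes were higher and 0 lower in GDNF at an adjusted p under 0.05, as was the case for 0% of the 19999 genes tested. At an unadjusted p under 0.05 there were also 0 of 34, against 0.88% of all tested genes, and none had groups that did not overlap, against 0.93%. Without CT replicate 2 the groups of COL6A2 and COL3A1 did not overlap, both higher in GDNF, which makes 2 of 34 against 1.53% of all tested genes, and 0 of 34 were lower, against 2.46%. DESeq2 called 0 collagen genes as well, with 0 at an unadjusted p under 0.05, against 0.755% of all genes. Limma-voom with sample weights also called 0, and there COL11A2 and COL21A1 had an unadjusted p under 0.05, which is 2 of 34 against 4.19% of all genes. Fold changes, given as log2 of GDNF over CT, ran from -0.66 (COL8A2) to 0.44 (COL5A3) with a median of -0.045, against -0.0098 over all genes. Of the 34, 10 had a fold change above 0 and 24 below, where 47.6% and 52.4% of all tested genes did. Without CT replicate 2 the split was 24 above and 10 below, the median 0.13, and 49.5% and 50.5% of all genes lay above and below 0. With an offset for GC content and transcript length it was 19 and 15, against 49.1% and 50.9% of all genes, with a median of 0.020.

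For the 17 genes of at least 5 CPM the intervals were narrow enough to bound a difference between these groups of libraries. Whether they also bound an effect of the coating depends on the libraries being from separate cultures, which is not stated. All 17 had a 95% confidence interval within 2-fold either way, and 13 within 1.5-fold. The spread among CT libraries was wider than among GDNF libraries for these genes, with a median coefficient of variation of 28.8% against 11.1%. Over all 11820 tested genes of that level the medians were 20.7% and 10.02%. Without CT replicate 2 the value in CT was 13.1% for collagens and 8.47% for all tested genes of that level. With the GC and length offset and all CT libraries kept, the value in CT was 10.8% for collagens and 8.86% for all tested genes of that level. In GDNF it was 11.4% and 7.53% with the offset, so the collagens then had no wider spread in CT.

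**Figure D2:**
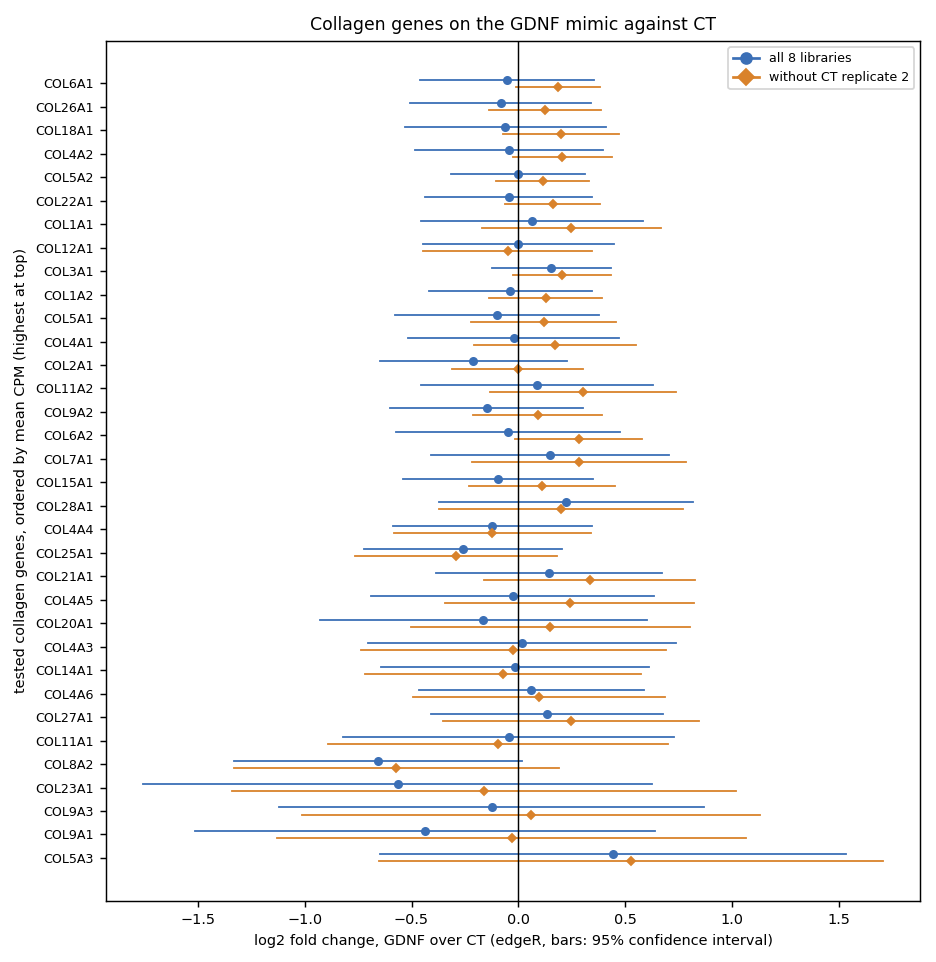
Log2 fold change of GDNF over CT for the 34 tested collagen genes with 95% confidence intervals from edgeR, with all 8 libraries (circles) and without CT replicate 2 (diamonds). All intervals include 0, and leaving out that library changes the sign for 16 of the 34 genes.

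CT replicate 2 deviated with GC content within the collagen family too. Of the 19 tested genes at or above the family's median GC content, all 19 were higher in that library than the mean of the other 7, by a median log2 difference of 0.62. Of the 15 genes below it, 10 were higher, by a median of 0.058. All tested genes split at the same GC content had medians of 0.52 and -0.23. Among collagens GC content and deviation had a Spearman correlation of 0.621 over 34 genes that share this 1 library. COL6A2 (66.4% GC) deviated by 0.79, COL5A2 (47.9%) by 0.33 and COL12A1 (46.3%) by -0.18.

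**Figure D3:**
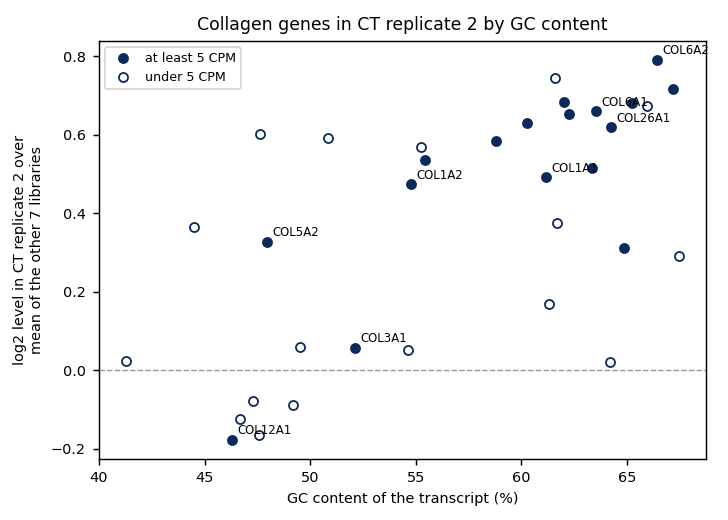
Log2 level in CT replicate 2 over the mean of the other 7 libraries (log2 of CPM plus 0.5) against the GC content of the transcript, 1 point per tested collagen gene; filled points average at least 5 CPM. Genes of high GC content lie above 0, up to 0.79 for COL6A2, and COL12A1 lies at -0.18.

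Type VI collagen was represented by its first chain almost alone. COL6A1 (ENSG00000142156, chromosome 21, 45981737 to 46005050, plus strand, GRCh38) stood at 304, 473, 268 and 267 CPM in CT replicates 1 to 4 and at 291, 292, 343 and 339.8 CPM in GDNF replicates 1 to 4. The highest value was that of CT replicate 2, and the groups overlapped, and the log2 fold change of the groups, with its 95% confidence interval, was -0.052 (-0.46 to 0.35; 0.18 without CT replicate 2). COL6A2 (chromosome 21, 46098097 to 46132849), its neighbour on the same strand and its partner in the assembled molecule, stood at 4.24, 8.92, 4.29 and 4.76 CPM in CT replicates 1 to 4 and at 5.05, 5.66, 5.38 and 5.37 CPM in GDNF replicates 1 to 4. It too peaked in CT replicate 2, the other 3 CT libraries lay below all 4 GDNF libraries, and its fold change was -0.048 (-0.57 to 0.47; 0.28 without CT replicate 2). COL6A3, the chain that completes the classic heterotrimer, had 5, 6, 8 and 4 reads in CT replicates 1 to 4 and 7, 4, 1 and 2 in GDNF replicates 1 to 4. Those few reads left it below the filter. The chains COL6A5 and COL6A6, which can take its place, were also low, with 4 to 14 and 6 to 22 reads per library. Per kb, COL6A1 exceeded COL6A2 59.1-fold on average (51.3-fold to 70.8-fold over the 8 libraries). That ratio, like the others from counts per kb with 0.5 added, was 5.90 ± 0.185 in CT and 5.87 ± 0.141 in GDNF (log2, SD, n = 4 each; exact permutation p = 0.771). No exon of either gene overlaps another annotated gene.

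Type IV collagen, the sheet-forming protein of basement membranes, was present mainly as its second chain. COL4A2 (ENSG00000134871, chromosome 13, 110305812 to 110513027) stood at 71.0, 106, 54.0 and 58.3 CPM in CT replicates 1 to 4 and at 62.9, 67.7, 77.2 and 72.8 CPM in GDNF replicates 1 to 4, and its fold change was -0.045 (-0.49 to 0.40; 0.21 without CT replicate 2). COL4A1 (chromosome 13, 110148963 to 110307149), which joins it in the common heterotrimer, stood at 9.05, 11.7, 5.05 and 8.48 CPM in CT replicates 1 to 4 and at 8.11, 9.81, 8.13 and 7.70 CPM in GDNF replicates 1 to 4, with a fold change of -0.023 (-0.52 to 0.47; 0.17 without CT replicate 2). Both were highest in CT replicate 2, and the groups overlapped for both. Per kb, COL4A2 exceeded COL4A1 6.27-fold (5.14-fold to 7.83-fold). COL4A1 over COL4A2 came to -2.66 ± 0.263 in CT and -2.64 ± 0.218 in GDNF (log2, SD, n = 4 each; exact permutation p = 0.943). In the table the spans of the 2 genes overlap from 110305812 to 110307149, and no strand setting of the counting is given, so reads there cannot be assigned with certainty.

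COL4A1 and COL4A2 are shown with their start regions because they are transcribed away from each other from neighbouring starts and yet differed in level. In RefSeq (GRCh38.p14) the starts lie 127 bases apart, and the 300-base windows around them share 226 bases. The windows are printed 5′ to 3′ on the strand of each gene, with capitals for matches to CCAAT and GGGCGG or their reverse complements.
COL4A1, chr13:110307108-110307407, minus strand: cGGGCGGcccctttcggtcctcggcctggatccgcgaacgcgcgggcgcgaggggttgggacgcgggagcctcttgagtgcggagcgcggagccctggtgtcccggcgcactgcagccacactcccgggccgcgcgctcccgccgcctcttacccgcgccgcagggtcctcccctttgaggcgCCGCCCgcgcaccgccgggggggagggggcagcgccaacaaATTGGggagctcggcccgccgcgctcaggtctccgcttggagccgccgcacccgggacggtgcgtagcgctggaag
COL4A2, chr13:110307034-110307333, plus strand: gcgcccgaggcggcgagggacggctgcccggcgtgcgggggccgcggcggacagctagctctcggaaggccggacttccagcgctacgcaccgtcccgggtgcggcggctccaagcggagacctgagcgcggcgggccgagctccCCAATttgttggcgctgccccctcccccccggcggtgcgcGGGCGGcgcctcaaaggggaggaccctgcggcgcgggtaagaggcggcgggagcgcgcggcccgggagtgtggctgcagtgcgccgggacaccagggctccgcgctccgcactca
The CCAAT and the GGGCGG of the COL4A2 window are the same base pairs as the ATTGG and the CCGCCC of the COL4A1 window, read from the other strand, and neither window holds TATAAA. RefSeq windows were found for 32 of the 44 collagen genes, 44 windows in all, some of them overlapping. CCAAT was found on either strand in 14 of these windows (31.8%, against 34.6% of all 35116 windows). GGGCGG was found in 24 (54.5% against 45.0%), and TATAAA in 8 (18.2% against 11.5%). A match describes letters only.

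The other type IV chains are also arranged as pairs with neighbouring starts, COL4A3 with COL4A4 on chromosome 2 and COL4A5 with COL4A6 on the X chromosome, and they were far lower. COL4A4 averaged 2.87 ± 0.398 CPM over the CT libraries and 2.63 ± 0.671 CPM over the GDNF libraries (SD, n = 4 each), and COL4A3, its partner in the kidney and eye, 1.30 ± 0.507 and 1.31 ± 0.418 CPM. COL4A5 averaged 1.75 ± 0.635 and 1.72 ± 0.514 CPM, and COL4A6, the chain joined to it in some basement membranes, 0.936 ± 0.143 and 0.980 ± 0.147 CPM. Within these pairs the levels were 0.273 and 0.143 CPM per kb for COL4A4 and COL4A3 and 0.147 and 0.103 for COL4A5 and COL4A6. COL4A5 over COL4A6 came to 0.44 ± 0.336 in CT and 0.38 ± 0.375 in GDNF (log2, SD, n = 4 each; exact permutation p = 0.857). Of the 6 type IV genes 2 had a fold change above 0 and 4 below, none past the test, and without CT replicate 2 it was 4 and 2.

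Among fibrillar collagens, which build the load-bearing fibres of connective tissue, COL5A2 was the most abundant. COL5A2 (ENSG00000204262, chromosome 2, 189031896 to 189179879), a chain of the type V collagen that starts new fibrils, stood at 55.4, 62.7, 42.0 and 46.4 CPM in CT replicates 1 to 4 and at 51.4, 50.1, 50.5 and 54.4 CPM in GDNF replicates 1 to 4. The 4 GDNF libraries fell within a span of 50.1 to 54.4 CPM inside the wider CT range, and the fold change was -0.00069 (-0.31 to 0.31; 0.11 without CT replicate 2). Its partner COL5A1 stood at 8.64, 12.7, 6.78 and 7.78 CPM in CT replicates 1 to 4 and at 7.02, 6.95, 10.05 and 9.50 CPM in GDNF replicates 1 to 4, with a fold change of -0.10 (-0.57 to 0.38; 0.12 without CT replicate 2). CT replicate 2 was again the highest library for both chains. Per kb, COL5A2 exceeded COL5A1 8.91-fold, and COL5A1 over COL5A2 came to -3.11 ± 0.162 in CT and -3.20 ± 0.261 in GDNF (log2, SD, n = 4 each; exact permutation p = 0.571). The remaining chain of type V, COL5A3, averaged only 0.286 ± 0.0449 CPM over the CT libraries and 0.386 ± 0.214 CPM over the GDNF libraries, and its fold change of 0.44 (-0.65 to 1.53; 0.53 without CT replicate 2) was the highest of the 34 tested collagen genes.

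Type I and type III collagen, the main fibres of skin and vessel walls, were also transcribed. COL1A1 (ENSG00000108821, chromosome 17, 50183289 to 50201632) stood at 31.5, 34.3, 19.2 and 16.9 CPM in CT replicates 1 to 4 and at 24.1, 24.3, 23.9 and 34.1 CPM in GDNF replicates 1 to 4. Its CT libraries formed a high pair (replicates 1 and 2) and a low pair (3 and 4), GDNF replicate 4 was above the other GDNF libraries, and the fold change was 0.063 (-0.46 to 0.58; 0.25 without CT replicate 2). COL1A2, the partner chain of type I, stood at 16.1, 20.7, 12.5 and 13.8 CPM in CT replicates 1 to 4 and at 14.3, 13.9, 16.2 and 17.2 CPM in GDNF replicates 1 to 4, with a fold change of -0.037 (-0.42 to 0.34; 0.13 without CT replicate 2). COL1A1 exceeded COL1A2 per kb 1.85-fold (1.38-fold to 2.24-fold), a ratio of 0.83 ± 0.279 in CT and 0.95 ± 0.176 in GDNF (log2, SD, n = 4 each; exact permutation p = 0.486). COL3A1 (chromosome 2, 188974320 to 189012746), which forms homotrimers, stood at 19.4, 20.2, 17.1 and 17.3 CPM in CT replicates 1 to 4 and at 19.9, 19.7, 19.9 and 22.9 CPM in GDNF replicates 1 to 4. It was the steadiest of the abundant collagens in CT, with a coefficient of variation of 8.26%. The groups overlapped through CT replicate 2 alone. Its fold change of 0.15 (-0.13 to 0.43, and 0.20 without CT replicate 2) had an edgeR unadjusted p of 0.254. It kept its sign under every alternative of the closing section. Other collagen genes did so too on either side of 0, such as COL28A1 above and COL2A1 below, and the alternatives reuse the same libraries.

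The cartilage-type fibrillar genes were transcribed at lower levels. COL2A1, the main collagen of cartilage, stood at 8.83, 11.5, 6.47 and 6.30 CPM in CT replicates 1 to 4 and at 7.22, 7.46, 6.62 and 7.30 CPM in GDNF replicates 1 to 4, and COL11A2, a chain of type XI collagen, at 6.36, 9.58, 5.64 and 5.86 CPM in CT replicates 1 to 4 and at 8.48, 8.75, 4.30 and 7.60 CPM in GDNF replicates 1 to 4. Fold changes were -0.21 (-0.65 to 0.23; -0.0029 without CT replicate 2) for COL2A1 and 0.088 (-0.45 to 0.63; 0.30 without CT replicate 2) for COL11A2, and in both genes the groups overlapped. The other type XI chain COL11A1 averaged 0.826 ± 0.272 and 0.806 ± 0.310 CPM in CT and GDNF, and the minor fibrillar gene COL27A1 0.849 ± 0.172 and 0.931 ± 0.103 CPM. COL24A1 had 0 to 10 reads per library and was not tested. Of the 10 fibrillar genes tested, 5 had a fold change above 0 and 5 below, and 8 and 2 without CT replicate 2.

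FACIT collagens, which bind to the surface of fibrils, were led by COL22A1 and COL12A1. COL22A1, known from tissue junctions such as that of muscle and tendon, stood at 48.2, 66.9, 37.2 and 40.7 CPM in CT replicates 1 to 4 and at 45.5, 47.9, 43.7 and 49.8 CPM in GDNF replicates 1 to 4, with a fold change of -0.046 (-0.44 to 0.35; 0.16 without CT replicate 2). COL12A1 (chromosome 6, 75084326 to 75206051), a companion of type I fibrils, stood at 22.1, 18.5, 17.04 and 26.7 CPM in CT replicates 1 to 4 and at 21.4, 28.2, 15.7 and 18.99 CPM in GDNF replicates 1 to 4. Unlike most collagens it did not peak in CT replicate 2, and GDNF replicate 2 and CT replicate 4 were its highest libraries. COL9A2, a chain of cartilage type IX collagen, stood at 6.20, 10.5, 6.29 and 5.99 CPM in CT replicates 1 to 4 and at 5.45, 6.29, 7.26 and 7.16 CPM in GDNF replicates 1 to 4, where CT replicate 2 lay well above the rest. Fold changes were -0.0014 (-0.45 to 0.45; -0.051 without CT replicate 2) for COL12A1 and -0.15 (-0.60 to 0.30; 0.090 without CT replicate 2) for COL9A2. The other type IX chains were scarce, at 0.404 ± 0.213 and 0.291 ± 0.145 CPM for COL9A1 and 0.393 ± 0.172 and 0.363 ± 0.172 CPM for COL9A3. COL9A2 exceeded COL9A3 per kb 18.3-fold (11.7-fold to 27.1-fold), and the ratio was 4.19 ± 0.481 in CT and 4.19 ± 0.507 in GDNF (log2, SD, n = 4 each; exact permutation p = 1). COL21A1 averaged 1.84 ± 0.453 and 2.03 ± 0.455 CPM, COL20A1 1.72 ± 0.841 and 1.54 ± 0.353 CPM and COL14A1 1.14 ± 0.423 and 1.13 ± 0.114 CPM. COL16A1 had 4 to 14 reads per library and COL19A1 0 to 10, and neither was tested. Of the 8 FACIT genes tested, 1 had a fold change above 0 and 7 below, and without CT replicate 2 it was 5 and 3 of the same 8.

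The chain ratios, which do not depend on how libraries are scaled, did not differ between the coatings by more than the spread between libraries. Of 6 ratios tested, 0 passed at an adjusted p of 0.05 (adjusted p = 1 for each, two-sided exact permutation test with Benjamini-Hochberg adjustment). The smallest p that 4 against 4 libraries allow is 0.0286, and the smallest found was 0.486. After adjustment over 6 ratios, a ratio at 0.0286 could not have passed by itself. Differences of GDNF minus CT in the log2 ratio ran from -0.094 to 0.13, and without CT replicate 2 from -0.10 to 0.15. The fold given for COL9A2 over COL9A3 is pulled toward 1 by the added 0.5, since COL9A3 had few reads; with 1 added the mean log2 ratio was 3.96.

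**Figure D4:**
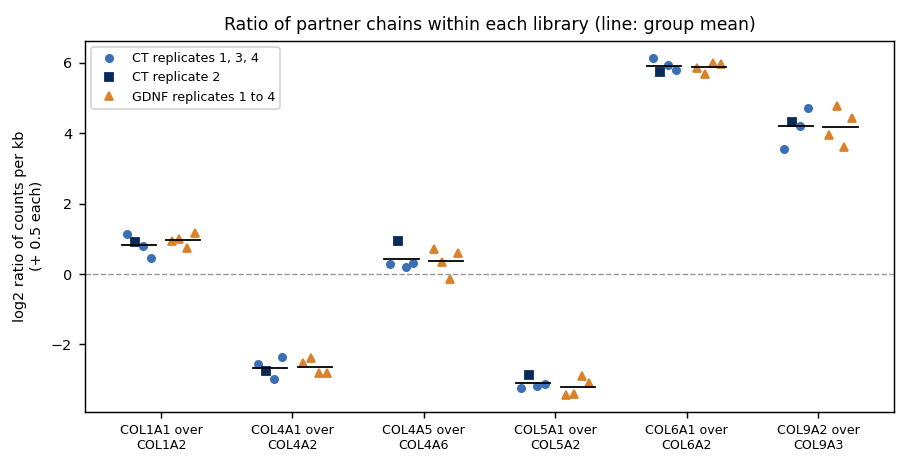
Log2 ratio of counts per kb (0.5 added to each) between chains that assemble together or share a start region, 1 point per library and a line at each group mean. COL6A1 exceeds COL6A2 and COL4A2 exceeds COL4A1 in all 8 libraries, and the group means differ by -0.094 to 0.13.

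The multiplexins and the unclassified collagens included some of the most abundant genes. COL18A1 (ENSG00000182871, chromosome 21, 45405137 to 45513720), a proteoglycan of basement membranes, stood at 76.3, 118, 61.1 and 63.7 CPM in CT replicates 1 to 4 and at 71.5, 75.8, 64.5 and 94.2 CPM in GDNF replicates 1 to 4. CT replicate 2 and GDNF replicate 4 were its highest libraries, and the fold change was -0.061 (-0.53 to 0.41; 0.20 without CT replicate 2). Exons of SLC19A1 lie opposite to 16.4% of its exonic bases, and without the strand setting the level is uncertain. For COL5A3 and COL15A1 the share opposite to other genes was 4% and 2.06%, and it was under 2% for every other collagen gene. That share does not count reads. Among the genes under 2%, COL19A1 had 40 reads in all and LMBRD1 opposite to it 12678, and COL9A3 had 94 and TCFL5 opposite to it 2127. How far such neighbours touch the low counts was not tested. The related COL15A1 averaged 4.59 ± 1.29 CPM over the CT libraries and 4.29 ± 0.372 CPM over the GDNF libraries, with a fold change of -0.10 (-0.54 to 0.35; 0.11 without CT replicate 2). COL26A1 (ENSG00000160963, chromosome 7, 101362820 to 101559024) stood at 91.0, 139.8, 91.8 and 79.0 CPM in CT replicates 1 to 4 and at 81.6, 80.1, 109 and 108 CPM in GDNF replicates 1 to 4. Its GDNF libraries formed a low pair (replicates 1 and 2) and a high pair (3 and 4), inside the CT range, and the fold change was -0.083 (-0.51 to 0.34; 0.12 without CT replicate 2). COL7A1, the anchoring fibril collagen of the skin, stood at 5.73, 6.32, 3.91 and 4.19 CPM in CT replicates 1 to 4 and at 5.42, 7.83, 3.39 and 5.61 CPM in GDNF replicates 1 to 4, with a fold change of 0.15 (-0.41 to 0.70; 0.28 without CT replicate 2). COL28A1, a collagen with von Willebrand factor A domains known from peripheral nerve in the mouse, averaged 2.68 ± 0.303 and 3.13 ± 1.12 CPM, with a fold change of 0.22 (-0.37 to 0.82; 0.20 without CT replicate 2).

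Transmembrane and short-chain collagens were scarce. COL25A1, a neuronal membrane collagen also found in amyloid plaques, averaged 2.28 ± 0.479 CPM over the CT libraries and 1.90 ± 0.291 CPM over the GDNF libraries, with a fold change of -0.26 (-0.72 to 0.20; -0.29 without CT replicate 2). COL23A1 averaged 0.463 ± 0.264 and 0.312 ± 0.183 CPM, with a fold change of -0.56 (-1.75 to 0.62) that was -0.16 without CT replicate 2. COL13A1, a membrane collagen of the neuromuscular junction, had 0 to 13 reads per library, and COL17A1 of the skin's hemidesmosome 0 to 6. COL8A2, a network collagen of the corneal endothelium, stood at 0.538, 0.898, 0.830 and 0.819 CPM in CT replicates 1 to 4 and at 0.542, 0.429, 0.336 and 0.642 CPM in GDNF replicates 1 to 4. Its fold change of -0.66 (-1.33 to 0.015; -0.57 without CT replicate 2) was the lowest of the 34, with the smallest unadjusted p of the family (0.0546) and an edgeR adjusted p of 0.9999, and the groups overlapped. COL8A1 had 0 to 5 reads. COL10A1, the collagen of hypertrophic cartilage, had 9, 9, 5 and 10 reads in CT replicates 1 to 4 and 5, 4, 1 and 1 in GDNF replicates 1 to 4. Scaled to CPM, the 4 CT values all exceeded the 4 GDNF values, as for 0.625% of the tested genes in that direction. COL10A1 was below the filter and is not among those tested genes. In edgeR without the filter its fold change was -1.63 (-3.03 to -0.23), with an unadjusted p of 0.0236 among 40414 genes and an adjusted p of 0.99997. In that setting 2.53% of all genes had an unadjusted p under 0.05.

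Enzymes and chaperones that make collagen in the endoplasmic reticulum were expressed throughout, and 0 of 64 tested genes of the pathway lists passed the test in either direction. All 19 listed hydroxylases, glycosyltransferases and chaperones were tested. They had 11 above and 8 below 0 (median 0.023; 15 and 4 without CT replicate 2). The disulfide isomerase P4HB, also a subunit of prolyl hydroxylase, averaged 148 ± 32.9 CPM over the CT libraries and 138 ± 15.6 CPM over the GDNF libraries. COLGALT1, which adds galactose to hydroxylysine, averaged 73.4 ± 12.96 and 69.4 ± 6.27 CPM, and the prolyl isomerase PPIB 55.6 ± 5.89 and 56.5 ± 4.56 CPM. Of the 6 genes of collagen export 5 lay above 0 and 1 below, and 2 and 4 without CT replicate 2. MIA3, the cargo receptor that loads procollagen at exit sites, averaged 108 ± 17.1 and 114 ± 13.2 CPM, the coat protein SEC23A 81.5 ± 17.7 and 86.4 ± 8.22 CPM and SEC13 74.9 ± 15.2 and 68.5 ± 4.09 CPM.

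Genes that trim and cross-link secreted collagen, 12 of 13 listed genes tested, had 5 above and 7 below 0 (median -0.10; 9 and 3 without CT replicate 2). The lysyl oxidase family members LOXL1 and LOXL3 averaged 43.6 ± 8.41 and 41.0 ± 8.04 CPM and 22.9 ± 3.90 and 20.8 ± 1.71 CPM. BMP1, the procollagen C-proteinase, averaged 15.02 ± 5.85 and 13.4 ± 1.70 CPM. Degrading proteases and their inhibitors, 11 of 13 tested, had 4 above and 7 below 0 (median -0.12; 4 and 7 without CT replicate 2). The metalloprotease inhibitor TIMP2 averaged 511 ± 25.9 and 513 ± 51.7 CPM, and the membrane-bound proteases MMP15 and MMP16 137 ± 38.5 and 128 ± 21.01 CPM and 58.3 ± 24.1 and 62.9 ± 10.4 CPM.

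Several receptors for collagen were expressed on both coatings, and others were scarce. GP6 and ADGRG6 averaged under 1 CPM in both groups, and LAIR1 did not pass the filter. ADGRG1, an adhesion G protein-coupled receptor that binds collagen III in the mouse brain, averaged 545 ± 137 CPM over the CT libraries and 497 ± 33.8 CPM over the GDNF libraries. The receptor tyrosine kinase DDR1, which binds fibrillar and type IV collagen, averaged 380.2 ± 93.5 and 351 ± 30.2 CPM, and the integrin subunit ITGB1 56.5 ± 17.8 and 61.7 ± 4.92 CPM. Of the alpha subunits that pair with it for collagen, named here for that role with their values already seen, ITGA2 averaged 2.83 ± 0.750 and 2.82 ± 0.900 CPM and ITGA10 1.002 ± 0.187 and 1.08 ± 0.302 CPM, ITGA11 was lower, and ITGA1 did not pass the filter. The 10 of 12 receptor genes tested had 5 above and 5 below 0 (median -0.052; 5 and 5 without CT replicate 2). The 6 partners of type IV collagen in basement membranes had 1 above and 5 below 0 (median -0.075; 5 and 1 without CT replicate 2). Agrin (AGRN) averaged 260.4 ± 74.8 and 249 ± 34.2 CPM, the cross-linking peroxidase PXDN 221 ± 45.8 and 211 ± 27.7 CPM and the collagen-binding SPARC 25.8 ± 0.702 and 24.1 ± 1.34 CPM.

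Markers of neurons were high and those of other collagen-making cells mostly low. The 6 neuronal markers summed to 4953 to 6980.4 CPM in CT and 6109 to 6915 CPM in GDNF libraries, led by MAP2 and STMN2. Not all were that high, since TUBB3 and RBFOX3 averaged 50.9 and 43.7 CPM over all libraries. The 7 dopaminergic markers summed to 1694 to 2494 CPM in CT and 1763 to 2103 CPM in GDNF libraries, led by LMX1B and DDC. CT replicate 2 had the lowest neuronal and the highest dopaminergic sum. Of 8 fibroblast and mesenchymal markers 3 exceeded 1 CPM on average, and the list had sums between 111 and 218 CPM among the CT libraries and between 139 and 233 CPM among the GDNF libraries, nearly all of it POSTN (129 ± 57.8 and 154 ± 53.8 CPM) and FBLN1 (27.1 ± 5.99 and 24.4 ± 5.33 CPM). TWIST1 had group means of 5.98 and 5.73 CPM, and the other 5 listed genes (PDGFRA, PDGFRB, DCN, LUM and PRRX1) averaged under 1 CPM in both groups. For DCN the groups did not overlap, with at most 0.567 CPM in CT and at least 0.572 CPM in GDNF, as for 0.305% of tested genes in that direction. Its edgeR unadjusted p was 0.107. POSTN was lowest in CT replicate 2 (68.04 CPM) and FBLN1 highest there (35.8 CPM). Endothelial and mural markers, 2 of 8 above 1 CPM, had sums between 17.2 and 26.6 CPM among the CT libraries and between 16.6 and 21.6 CPM among the GDNF libraries, led by NOTCH3 and KDR, with PECAM1 and CDH5 under 0.1 CPM. Cartilage markers, 3 of 6 above 1 CPM, had sums between 5.70 and 7.49 CPM among the CT libraries and between 5.29 and 7.94 CPM among the GDNF libraries, led by MATN3 and SOX9, with COMP and CHAD under 0.1 CPM. Astrocyte markers had sums between 3.72 and 6.01 CPM among the CT libraries and between 3.58 and 5.09 CPM among the GDNF libraries (2 of 6 above 1 CPM, led by GJA1 and AQP4). Progenitor markers had sums between 183 and 249 CPM among the CT libraries and between 177 and 244 CPM among the GDNF libraries (5 of 6, led by NES and SOX2) and those of epithelium and choroid plexus between 27.9 and 35.6 CPM among the CT libraries and between 27.6 and 32.4 CPM among the GDNF libraries (all 6, led by KRT18 and KRT8). The groups of SOX2 did not overlap, at 6.96 to 8.26 CPM in CT and 5.95 to 6.72 CPM in GDNF (edgeR adjusted p = 0.9999). Groups did not overlap in that direction for 0.625% of tested genes. TOP2A, a gene of dividing cells, averaged 0.967 ± 0.546 and 1.75 ± 0.420 CPM. Its edgeR unadjusted p was 0.0410, and its adjusted p was 0.9999. An unadjusted p under 0.05 was found for 0.3% of tested genes in that direction. The lowest TOP2A value was that of CT replicate 2 (0.466 CPM). MKI67 of the same list averaged 1.05 ± 0.250 and 1.19 ± 0.241 CPM (edgeR unadjusted p = 0.518). Of the 5 progenitor markers tested, 2 had a fold change above 0 and 3 below. No marker described here passed the test, and what share of the collagen reads such cells gave was not tested.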

How the data were processed

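Human dopaminergic neurons derived from stem cells were profiled by polyA RNA-seq in 8 libraries, 4 per coating. Per the labels' protocols, TRIzol extracts were cleaned with a Monarch kit before TruSeq mRNA library preparation. The authors deposited raw counts per Ensembl gene, with no normalization. The submitters' processing notes name GRCh38 and the tools STAR, HTSeq, DESeq2, FastQC and cutadapt. How strand and multi-mapping reads were treated, and which versions and annotation served, is not given in these sources.

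Counts were filtered with filterByExpr (at least 10 in a library, 15 in all), and 19999 genes remained with 99.9% of the counts. They were scaled by TMM and tested on all genes with edgeR 4.0.16 (quasi-likelihood, robust, group as the only term, two-sided, Benjamini-Hochberg at 0.05) in R 4.3.3. Alternatives used limma 3.58.1, DESeq2 1.42.0, other scalings, an offset per library fitted on GC content and length, and left-out libraries. The test was checked on simulated counts. Exon length, overlap and GC content came from GENCODE 29, where 40 of the 44 collagen genes have the positions of the table, and start regions from RefSeq. The exceptions are COL4A1, COL4A2, COL5A2 and COL17A1. Their lengths, overlaps, levels per kb and chain ratios rest on gene models that may not be those counted. A pseudocount of 0.5 was used for ratios. Collagen genes and gene lists were chosen with earlier results of these data known. All collagen genes are named, those of at least 5 CPM with every library; of each pathway list the 3 highest genes and any with an unadjusted p under 0.05, of each marker list the 2 highest. The result of 1 marker list is not reported here.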

Additional observations from a re-analysis of the deposited data

Results flagged for a closer look

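In 5 of 48 groups of 4 values examined 1 library lay far from the other 3, where chance flags about 1 in 20. CT replicate 2 was the distant library for 3 of them. COL9A2 stood at 10.5 CPM there, and the remaining CT libraries at 5.99 to 6.29 CPM. COL6A2 stood at 8.92 CPM against 4.24 to 4.76 CPM. The log2 ratio of COL4A5 over COL4A6 was 0.94 against 0.21 to 0.32. In GDNF replicate 4, COL1A1 stood at 34.1 CPM, while the remaining GDNF libraries held 23.9 to 24.3 CPM, and COL3A1 at 22.9 CPM against 19.7 to 19.9 CPM.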

How the results depend on the processing

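The number of collagen genes, pathway genes and chain ratios past the threshold was 0 under every alternative run. For chain ratios the replicate block flips the sign of differences within 4 pairs. It could give no p under 0.05, so its 0 was fixed in advance. No collagen gene was called, but 24 of the 34 changed the sign of their fold change under at least 1 of the 18 alternatives: 16 without CT replicate 2, 13 with limma-voom, 9 with the GC and length offset, and 0 to 2 with other scalings, no filter or DESeq2. With GDNF replicate 1 or 2 left out, 33 of the 34 could be tested. Unadjusted p-values under 0.05 were found for COL3A1 with the offset (1.71% of all genes there), COL8A2 without CT replicate 1 (1.56%) or GDNF replicate 4 (0.945%), and COL5A3 and COL28A1 without GDNF replicate 3 (0.927%). The family's median ran from -0.15 (without CT replicate 3) to 0.13 (without CT replicate 2). The summed collagen level had a log2 ratio of -0.043, 0.047 with the offset, and -0.13 to 0.16 with 1 library left out. The replicate block also called 0 genes; its family median was -0.013, or 0.027 with the GC and length offset. Same-numbered libraries did not deviate together in all 4 pairs (correlations 0.25, -0.29, 0.16 and -0.38). These are deviations from group means, and the CT mean includes the distant CT replicate 2. The correlations therefore cannot decide whether the numbers mark pairs, and the main test did not take them as pairs. Chosen after the data were seen, the offset without CT replicate 2 gave a median of 0.046, and the length of the transcript with the longest coding sequence gave log2 ratios of 5.59 for COL6A1 over COL6A2, -3.08 for COL4A1 over COL4A2, -2.83 for COL5A1 over COL5A2, 0.40 for COL1A1 over COL1A2 and 0.81 for COL4A5 over COL4A6. Also added then, the number of tested collagen genes with groups that do not overlap was 0 with all libraries and 2 without CT replicate 2 (COL3A1 and COL6A2). Depth limits the 18 genes under 1 CPM, 10 of which could not be tested.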
